A study of Drosophila melanogaster with 2 samples.

Results

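The genes described here are 10 genes of mitosis, listed by name: the mitotic kinases polo, aurA, aurB and Mps1, the spindle checkpoint genes BubR1, Bub3, Bub1, Mad1 and mad2, and fzy, which encodes the activator of the anaphase-promoting complex that the checkpoint restrains. They are 10 of 13968 protein-coding genes. Sites of CHES-1-like, one of the forkhead DNA-binding proteins of Drosophila, were mapped at them by chromatin immunoprecipitation and sequencing (ChIP-seq), in which DNA that a protein contacts is recovered with an antibody and sequenced. The chromatin came from whole embryos of pooled sexes aged 0 to 24 h, of a transgenic line that stably expresses CHES-1-like with GFP at its C-terminus, and was recovered with an antibody to GFP. There is 1 group, with biological replicates 2 and 3 from separate biosamples of that line, and no second condition. A whole embryo pools all its cell types, so strong binding in few cells and weak binding in many cannot be told apart.

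Polo, Aurora A, Aurora B and Mps1 are protein kinases that drive entry into mitosis, centrosome maturation, chromosome attachment and checkpoint signalling. The spindle checkpoint holds a cell in mitosis until every kinetochore, the protein assembly that joins a chromosome to the spindle, is attached to microtubules. At unattached kinetochores Mps1, Bub1, Bub3, Mad1 and Mad2 act in sequence to make a complex of Mad2, BubR1, Bub3 and Fzy that blocks the anaphase-promoting complex (APC/C), a ubiquitin ligase. Once the block is lifted, Fzy and the APC/C direct the destruction of securin and cyclin B, and sister chromosomes part. Genetic work in the Drosophila heart has placed polo downstream of CHES-1-like and of the related factor jumu in the division of cardiac progenitors.

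CHES-1-like had a summit in the thresholded list at 6 of the 10 genes: polo, aurA, BubR1, Bub3, mad2 and Mps1. That list was made by the authors' reproducibility procedure and holds exactly the 4599 strongest entries of the pooled list. A summit in it thus need not be among the 4599 strongest of each replicate. The other 4, aurB, Bub1, Mad1 and fzy, had none. All 6 had a summit within 500 bp of a transcription start site (TSS) of the gene. That is 60% of the 10 genes, beside 25.9% of all protein-coding genes. The exact Clopper-Pearson 95% interval, 26.2 to 87.8%, treats the genes as independent random draws, which they are not. It covers no spread between replicates. When summits anywhere in the gene or within 2 kb of it were counted, the same 6 genes had one, beside 40.3% of all protein-coding genes. The listed genes are short, from 959 to 5287 bp, and among all genes no longer than 5287 bp the share was 35.9%. The 6 were also the genes with a summit in that range among the 4599 strongest entries of each replicate, beside 34.8% of all protein-coding genes. mad2 counted there through its promoter in replicate 2 (rank 4444) and through a summit at the neighbouring start of kri in replicate 3 (rank 2748). The 10 genes were chosen by name, with earlier results of these data known, and are not a random sample of genes. The interval therefore does not serve to compare 60% with 25.9%. These shares are a description, and no test was made.

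**Figure D1:**
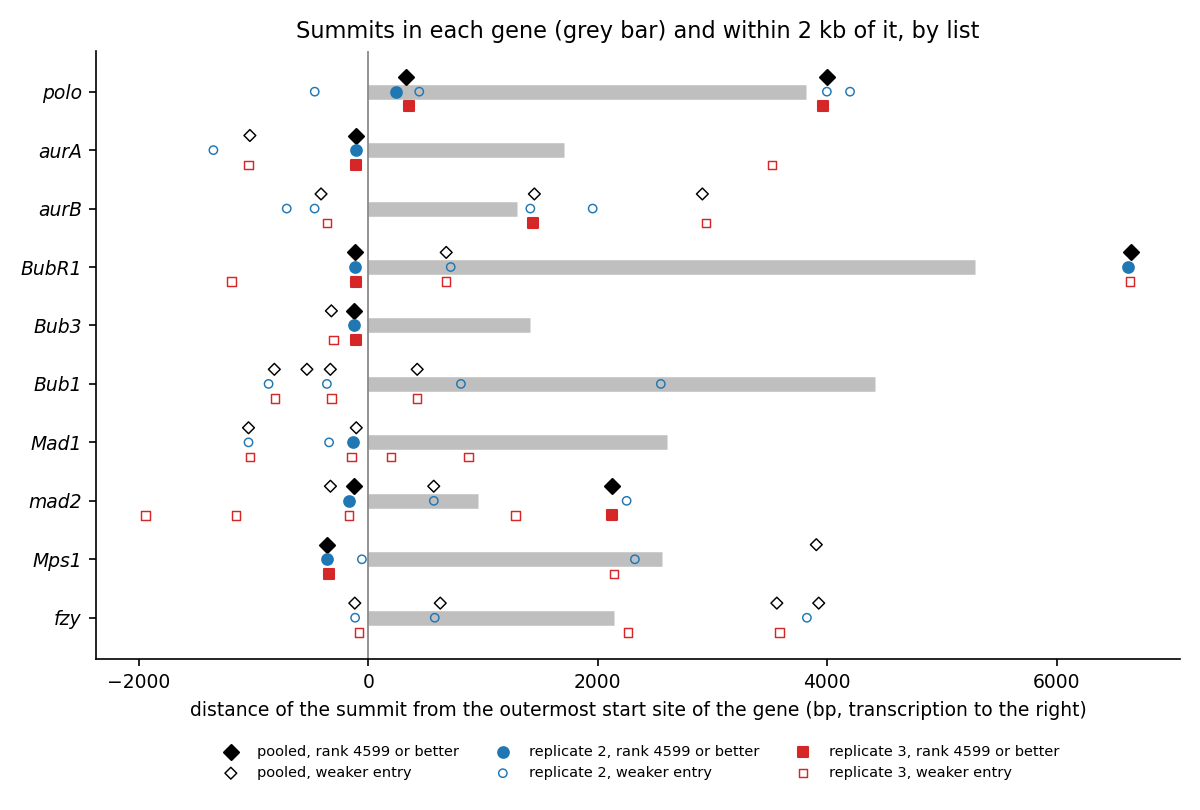
Summits in each gene and within 2 kb of it, plotted by distance in bp from the outermost start site, with transcription to the right. Filled symbols are entries of rank 4599 or better in their own list, open symbols weaker entries, and the grey bar is the gene. Filled symbols stand near the start site in all 3 lists for polo, aurA, BubR1, Bub3 and Mps1.

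Each list entry carries a signal, the authors' own value, which is read here only within its list, and a rank by that signal. The thresholded list holds 4599 summits, exactly the 4599 strongest of the 30000 pooled entries, with a lowest signal of 84.2 and a median of 130. The pooled and replicate lists hold peaks and background, so a weak entry in them is not by itself evidence of a site. In all, 9 thresholded summits fell in the 10 genes or within 2 kb of them, of 28 pooled entries there and 31 in each replicate list. None of the 9 lay in the coding sequence of a listed gene, and 8 lay outside the transcribed span of the gene they were counted for. The exception was the promoter summit of polo. The genes are 959 to 5287 bp long and 2 kb was searched on each side, so much of the range is outside them. The same shares over all genes were not computed for these positions.

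The promoter stretches below are shown because each holds the strongest pooled summit near the start of its gene, with aurA, Bub3, mad2 and Mps1 in the thresholded list and fzy below it. Each is the part of the 201 bp around the summit that no annotated transcript covers, read 5′ to 3′ on the strand of the gene, from release 6 of the genome (dm6). Capitals mark a DRE (TATCGATA, the site of the promoter factor DREF), a forkhead core (TAAACA), a second forkhead site (GACGC) or a CHR (TTTGAA, an element of cell cycle promoters in mammals), on either strand. The aurA stretch is chr3R:11962917-11963117 (plus strand), that of Bub3 chr3R:29675441-29675641 (minus strand), that of mad2 chr3L:5813114-5813314 (minus strand), that of Mps1 chr3R:17670896-17671011 (plus strand) and that of fzy chr2L:16310739-16310939 (plus strand).
aurA: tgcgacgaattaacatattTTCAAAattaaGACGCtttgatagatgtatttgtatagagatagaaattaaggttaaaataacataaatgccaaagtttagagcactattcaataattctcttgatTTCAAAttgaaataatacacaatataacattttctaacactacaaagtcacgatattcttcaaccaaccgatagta
Bub3: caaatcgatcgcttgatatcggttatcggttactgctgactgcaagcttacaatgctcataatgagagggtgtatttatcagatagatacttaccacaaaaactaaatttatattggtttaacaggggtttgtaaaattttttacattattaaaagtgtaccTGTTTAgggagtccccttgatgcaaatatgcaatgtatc
mad2: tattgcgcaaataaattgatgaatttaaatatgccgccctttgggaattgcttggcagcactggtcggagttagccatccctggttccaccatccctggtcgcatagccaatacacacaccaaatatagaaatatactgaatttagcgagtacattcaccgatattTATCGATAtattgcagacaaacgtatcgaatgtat
Mps1: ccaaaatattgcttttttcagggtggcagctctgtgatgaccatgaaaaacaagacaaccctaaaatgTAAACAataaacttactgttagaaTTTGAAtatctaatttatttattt
fzy: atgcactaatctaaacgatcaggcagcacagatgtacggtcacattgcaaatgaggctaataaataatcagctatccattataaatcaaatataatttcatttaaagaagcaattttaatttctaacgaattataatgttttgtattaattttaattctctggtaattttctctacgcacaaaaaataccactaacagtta
In these stretches the DRE stood at mad2 alone, forkhead cores at Bub3 and Mps1, the second forkhead site at aurA, and CHR matches at aurA and Mps1. The fzy stretch held none of the marked motifs. GC content ran from 26.9% at aurA to 40.3% at mad2.

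Among the genes listed as mitotic kinases, aurA had the strongest summit. Its product, Aurora A, acts at centrosomes and spindle poles. aurA (FBgn0000147, 3R, 11963124 to 11964826, plus strand) had 1 thresholded summit, at 11963017, 107 bp upstream of its TSS, with a signal of 198 and rank 1014 of 4599. The summit stood at the same base in both replicates, with rank 1308 in replicate 2 and 974 in replicate 3. CG3281 starts 319 bp away in the opposite direction, and its TSS is 212 bp from the summit, so the summit lies between the starts of a divergent pair. No other entry within 2 kb of aurA had a signal above 26.5 in the pooled list, where it ranked 24712.

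polo (FBgn0003124, 3L, 20309654 to 20313466, plus strand) had a weaker promoter summit than aurA and a second summit past its end. The first, at 20309981, lay 66 bp upstream of the inner of its 2 TSSs and in the 5' UTR of transcripts from the outer one, with a signal of 133 and rank 2187. In the replicates the matched summits stood 112 bp apart, with rank 1910 in replicate 2 and 2273 in replicate 3, the widest gap among the 6 promoter summits. The second, at 20313650, had a signal of 95.4 and rank 3768, and ranked 4699 in replicate 2 and 3445 in replicate 3. It lay 18 bp downstream of the TSS of alphaSnap, a gene of membrane fusion that follows polo on the same strand, and 3603 bp downstream of the nearer polo TSS.

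Mps1, the kinase that starts checkpoint signalling at kinetochores, had its summit nearer to a neighbouring gene. The thresholded summit of Mps1 (FBgn0000063, 3R, 17671271 to 17673828, plus strand) stood at 17670911, 360 bp upstream of the Mps1 TSS but 16 bp from that of CG7523, which starts 376 bp away in the opposite direction. Its signal was 118 with rank 2713, and it ranked 3002 in replicate 2 and 2910 in replicate 3. With a window of 250 bp around the TSS in place of 500 bp, Mps1 no longer counted. Closer to the Mps1 start, 55 bp upstream of it, replicate 2 alone had an entry, with rank 24416.

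aurB, whose product Aurora B is the kinase of the chromosomal passenger complex at centromeres, had no thresholded summit. The strongest pooled entry near aurB (FBgn0024227, 2L, 10856797 to 10858094, minus strand) stood past its 3' end at 10856646, 2 bp upstream of the TSS of Dnz1, with a signal of 76.4 and rank 5301. Its matched entries ranked 6148 in replicate 2 and 4565 in replicate 3. At the aurB start itself the strongest pooled entry was 411 bp upstream, nearer to the divergent gene Stam at 31 bp, with a signal of 34.1 and rank 17096. That entry ranked 10156 in replicate 2 and 20861 in replicate 3, both with a deposited q-value above 0.05 (−log10 q of 1.14 and 0.22). The genes listed as mitotic kinases thus fell in the order aurA, polo, Mps1 and aurB by their promoter entries. This order was the same in the pooled list and in each replicate. Bub1, a checkpoint kinase described below, was not placed in it.

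**Figure D2:**
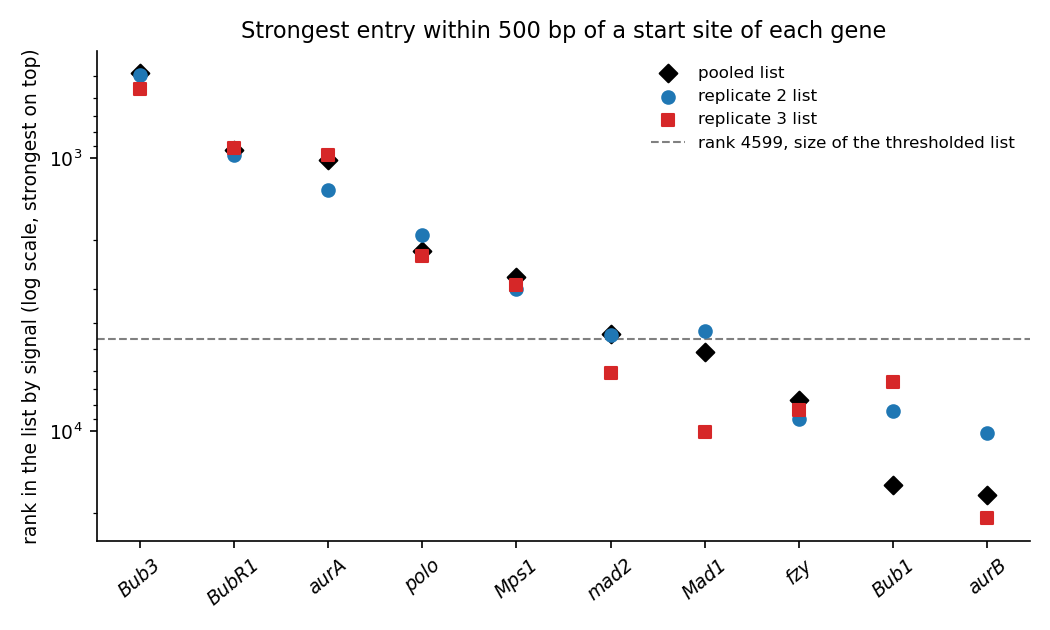
Rank by signal of the strongest entry within 500 bp of a start site of each gene (log scale, strongest on top) in the pooled list (diamonds) and in replicates 2 (circles) and 3 (squares), with the genes ordered by pooled rank. The dashed line marks rank 4599; 5 genes lie above it in every list, mad2 and Mad1 lie across it, and fzy, Bub1 and aurB lie below it.

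Of the checkpoint genes, Bub3 and BubR1 had the strongest summits of the 10 genes. Bub3 is a WD40 protein that recruits Bub1 and BubR1 to kinetochores. Bub3 (FBgn0025457, 3R, 29674007 to 29675421, minus strand) had 1 thresholded summit, at 29675541, 120 bp upstream of its TSS, with a signal of 281 and rank 487. The matched summit ranked 496 in replicate 2 and 556 in replicate 3, and the 2 replicate summits were 23 bp apart. Cap-D2, which encodes a condensin subunit, starts 230 bp away in the opposite direction, and its TSS is 110 bp from the summit, so the peak lies almost midway between the starts of a checkpoint gene and a chromosome condensation gene. By the nearest TSS this summit would count for Cap-D2, but the matched replicate 3 summit was nearest to Bub3, at 103 bp. The summit of Mps1 would count for CG7523, which was also nearest to the matched summit in each replicate.

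BubR1 encodes the checkpoint protein that, with Bub3 and Mad2, binds Fzy. BubR1 (FBgn0263855, 2R, 5969099 to 5974385, minus strand) had a promoter summit at 5974497, 112 bp upstream of its single TSS, with a signal of 205 and rank 930. The replicates placed it 10 bp apart, at rank 970 in replicate 2 and 917 in replicate 3. No other protein-coding gene has a TSS within 1 kb of this one, so the summit has no second coding start to be counted for. A second thresholded summit, at 5967742 beyond the 3' end of BubR1, had a signal of 101 and rank 3474. It lay 4 bp from the start of the non-coding RNA gene lncRNA:CR44127 and 6643 bp from the BubR1 TSS. A pooled entry in the coding sequence of BubR1, at 5973705, was found in both replicates within 100 bp but ranked 15539, with a signal of 36.3.

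mad2 and Mad1, whose products form the complex that catalyses the checkpoint signal, stood on either side of the list's limit. The mad2 gene (FBgn0035640, 3L, 5812135 to 5813093, minus strand) had a promoter summit at 5813214, 121 bp upstream of its TSS, with a signal of 86.6 and rank 4393, and Mad1 (FBgn0026326, 2R, 9288957 to 9291565, minus strand) had its promoter entry at 9291669, 104 bp upstream, with a signal of 78.2 and rank 5113. The lowest signal in the thresholded list was 84.2, so mad2 was just inside and Mad1 just outside. Replicate 2 placed both within its 4599 strongest entries, at ranks 4444 for mad2 and 4291 for Mad1. In replicate 3 neither was within them, at rank 6135 for mad2 and 11096 for the matched Mad1 entry. A slightly stronger replicate 3 entry, with rank 10079, lay 200 bp downstream of the Mad1 TSS. The Mad1 summit lay 187 bp from the TSS of the divergent gene Drep2. With the 4599 best entries of replicate 2 alone, Mad1 counted and mad2 did too, and with those of replicate 3 alone neither promoter did.

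A second thresholded summit within 2 kb of mad2, at 5810968, had a signal of 84.9 and rank 4543. It lay 5 bp from the TSS of kri and 37 bp from that of S6k, a kinase gene of growth control, and 2125 bp downstream of the mad2 TSS. It was the only one of the 9 thresholded summits without a match within 100 bp in both replicates. In replicate 2 the nearest entry stood 127 bp away with rank 6666, and in replicate 3 it stood 3 bp away with rank 2748. Over all thresholded summits, 94.0% had a match in both replicates.

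Bub1, a checkpoint kinase that also marks the inner centromere, had only weak entries, and the replicates placed them differently. The strongest pooled entry within 500 bp of a TSS of Bub1 (FBgn0031696, 2L, 5278865 to 5283283, plus strand) stood 330 bp upstream with a signal of 36.1 and rank 15685, below the pooled median signal of 37.2. It lay 13 bp from the TSS of Nin, which starts 317 bp away in the opposite direction. Replicate 2 had its strongest promoter entry 360 bp upstream with rank 8437, and replicate 3 had it 235 bp downstream of the inner TSS with rank 6614. At the pooled summit itself, replicate 3 had an entry 10 bp away with rank 21024, which is the matched one. The strongest entries of the 2 replicates lay 783 bp apart, though each passed a q-value of 0.05 in its own list (−log10 q of 1.60 and 1.65).

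fzy, the target of the checkpoint, had a promoter entry below the limit in every list. The entry of fzy (FBgn0001086, 2L, 16310956 to 16313097, plus strand) stood at 16310839, 117 bp upstream of its TSS and 113 bp from that of cni, the divergent gene 230 bp away. Its signal was 58.5 with rank 7682 in the pooled list, and its matched entries ranked 8999 in replicate 2 and 8365 in replicate 3. Its −log10 q was 1.69 in the pooled list, 1.43 in replicate 2 and 1.14 in replicate 3, so it passed a q-value of 0.05 in the first and second of these and not in replicate 3. The replicate summits were 31 bp apart, closer than those of polo, so position was shared between replicates at fzy although the entry was weak.

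The spread of the replicate ranks is given as a description. Ranks near the top of a list have less room to differ, and the thresholded list came from a reproducibility procedure. The SD of the 2 replicate ranks was 37.5 at BubR1, 42.4 at Bub3, 65.1 at Mps1, 236 at aurA and 257 at polo (n = 2 each). It was 1196 at mad2, 448 at fzy, 4812 at Mad1, 7570 at aurB and 8900 at Bub1. Of the 8 thresholded summits matched in both replicates, 4 ranked better in replicate 2 and 4 in replicate 3. The order Bub3, BubR1, aurA, polo, Mps1 held in the pooled list. In replicate 3 the order was the same, with BubR1 at 917 and aurA at 974 close together, and so it was in replicate 2. Of the 19 weaker pooled entries at these genes, 8 had a match within 100 bp in both replicates. The same share over all weaker pooled entries was not computed, so this count is not a result about these genes.

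Most of these genes start beside another gene. For 7 of the 10, aurA, aurB, Bub3, Bub1, Mad1, Mps1 and fzy, a protein-coding gene on the other strand starts within 1 kb upstream, at 230 to 442 bp. Among all protein-coding genes, 4648 of 13968 have such a neighbour. Of these 7, 3 had a thresholded summit within 500 bp of their TSS, beside 45.6% of all genes with such a neighbour. All 3 genes without one, polo, BubR1 and mad2, had such a summit, beside 16.1% of all other genes. The 2 kinds of start were not compared by a test. The strongest pooled promoter entry lay upstream of the nearest TSS at all 10 genes, between 66 and 411 bp from it. How often this holds over all genes was not counted. At polo the entry lay upstream of the inner TSS only. In replicate 3 the strongest promoter entry lay downstream at Bub1 (235 bp) and Mad1 (200 bp).

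Every gene had some entry at its start once weak entries were let in. All 10 had a pooled entry within 500 bp of a TSS, beside 56.6% of all protein-coding genes. At a rank limit of 1000 these were 2 of the 10 genes (20%), beside 6.97% of all genes, and at 3000 they were 5 (50%), beside 18.6%. At 8000 they were 8 (80%), beside 36.4%, and the last 2, Bub1 and aurB, came in between ranks 15000 and 20000.

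**Figure D3:**
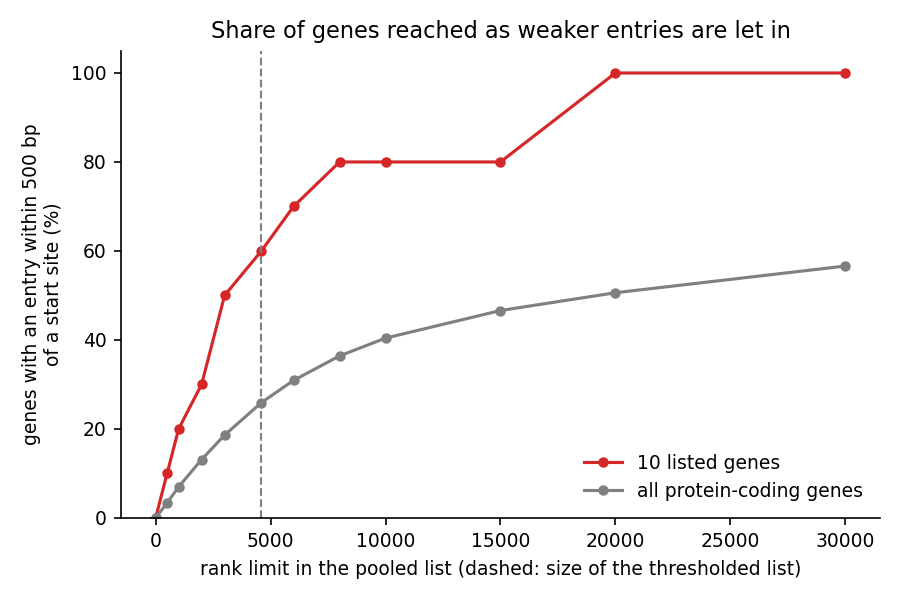
Percent of genes with an entry within 500 bp of a start site (y axis) as the rank limit in the pooled list rises (x axis), for the 10 listed genes and for all protein-coding genes. At the dashed line, rank 4599, the curves stand at 60% and 25.9%, and at rank 20000 at 100% and 50.6%.

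Motifs were searched on both strands in the 201 bp around the strongest pooled promoter summit of each gene and in its promoter, 250 bases before to 50 after the outermost TSS. At aurB, Bub1, Mad1 and fzy that summit is not thresholded, while the shares for summit windows are over thresholded summits only. At polo the promoter so defined ends before the summit and the inner TSS. At aurB, Bub1 and Mps1 the summit lay farther upstream than the promoter reaches. The DRE (TATCGATA) stood in the promoters of 3 of the 10 genes, BubR1, Bub3 and mad2, beside 9.36% of all promoters and 16.8% of promoters of genes with a thresholded summit at a TSS. It lay at bases -33 to -26 from the TSS in BubR1, -23 to -16 in Bub3 and -55 to -48 in mad2, and these 3 genes were all in the thresholded list. Motif 1, an element of broadly active promoters that the protein M1BP contacts, was searched by its core GGTCACACT. It stood over the start or just past it in aurB, Mps1 and fzy, from base -8 to base 14, beside 6.04% of all promoters and 11.1% of promoters of genes with a thresholded summit at a TSS. In the 201 bp around the summits it stood at 0 of the 10 genes, beside 4.26% of all thresholded summit windows, and the DRE at 2, BubR1 and mad2, beside 6.76%. Of these 3 genes only Mps1 had a thresholded summit. No gene held both elements.

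The forkhead core (TAAACA) stood near the summits of Bub3, Bub1 and Mps1, 3 of the 10, beside 27.1% of all thresholded summit windows. The Bub1 summit is not in the thresholded list. At Bub3 it was centred 65 bp from the summit and at Mps1 55 and 68 bp from it. The second forkhead site (GACGC) stood at aurA, 68 bp from the summit, and at polo, 56 bp from it, 2 of the 10 beside 16.1%. In these windows mad2 and BubR1, with thresholded promoter summits, held neither, and nor did Mad1, aurB and fzy below the limit. The CHR (TTTGAA) stood at polo, aurA, Bub1 and Mps1, beside 27.7% of all windows. At polo an E-box (CAGCTG, in 12.7% of all windows) overlapped the GACGC match by 1 base. GAGAG, the site of GAGA factor, stood at Bub3 alone, beside 24.2%, and none of TTTCCCGC, TTTGGCGC and TTTCGCGC, sites of the cell cycle factor E2F, stood in any of the 10 windows, beside 3.37% of all windows with at least 1 of them. In the promoters, TAAACA stood at polo, aurB, Bub3 and Mps1, 4 of the 10, beside 32.5% of all promoters. GACGC stood in the promoters of aurA, aurB, Bub3 and Bub1, also 4 of the 10, beside 22.2%. These short matches are a description and do not mark a bound base.

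Around the 10 genes, 55 other genes of the same machinery were followed in 8 lists, and 21 of them (38.2%) had a thresholded summit within 500 bp of a TSS, beside 25.9% of all protein-coding genes. Counted in the gene or within 2 kb, they were 28 (50.9%), beside 40.3%. In 7 of these 28 no summit was near the TSS of the gene. Of the 29 with a divergent neighbour 12 had a summit at a TSS, beside 45.6% of all genes with one. Of the 26 without one 9 did, beside 16.1% of all other genes.

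The counts of the single lists are small and are given without a test, each to be read beside the same 25.9% of all protein-coding genes. The chromosomal passenger complex, which holds Aurora B at centromeres, had 0 of 4 genes with a thresholded summit. Their strongest pooled promoter entries, named after their values were seen, ranked 5521 for Incenp, 9961 for borr, 23520 for aust and 28678 for Det. That of Incenp had a signal of 74.05, below the lowest thresholded signal of 84.2. Separase, which parts sister chromosomes, and securin, the inhibitor of separase that Fzy and the APC/C mark for destruction, had 0 of 3, with pooled ranks of 17273 for thr, 19274 for pim and 21780 for Sse. The proteins that bring checkpoint components to kinetochores had 2 of 4, rod and Zwilch, with promoter ranks of 4026 and 4172. The strongest summit within 2 kb of rod had a signal of 594 and rank 82, and lay 128 bp from the TSS of CG1635. Zw10 at 4834 and Spindly at 5496 stood outside the limit, with signals of 81.6 and 74.3.

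The APC/C with its activators and inhibitors had 6 of 13 genes with a summit at a TSS. Among these were fzr, which encodes the second activator beside Fzy (signal 109, rank 3090), and Cdc27, a subunit gene (signal 90.3, rank 4100). Both had a far stronger summit in the range of the gene plus 2 kb, of signal 645 (rank 70) for fzr and 385 (rank 216) for Cdc27. These lay nearest to the TSSs of CG3009, at 337 bp, and of MED4, at 123 bp. Greatwall and phosphatase 2A genes, which set the balance of mitotic phosphorylation, had 3 of 4, led by tws, a regulatory subunit gene (156, rank 1603), and mts, the catalytic subunit gene (153, rank 1664). The mts summit lay 11 bp from the start of Rack1.

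Kinetochore genes had 4 of 11, with Spc25, of the Ndc80 complex, strongest at its own TSS (signal 157, rank 1594). Spc105R, the scaffold to which Bub3 and Bub1 are recruited, ranked 18509 at its TSS, and the stronger summit within 2 kb of it (279, rank 495) lay 19 bp from the TSS of tzn. Partners of the kinases had 2 of 7. The strongest summits within 2 kb of mei-38, a spindle gene (231, rank 720), and of bora, an activator of Aurora A (150, rank 1736), lay at the starts of sta, 1 bp away, and MYPT-75D, 94 bp away. Mitotic kinesins and central spindle genes had 4 of 9. The strongest summits within 2 kb of ncd, a kinesin gene (239, rank 677), and cana (225, rank 756) lay nearest to the starts of Etfb and CG33695.

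**Figure D4:**
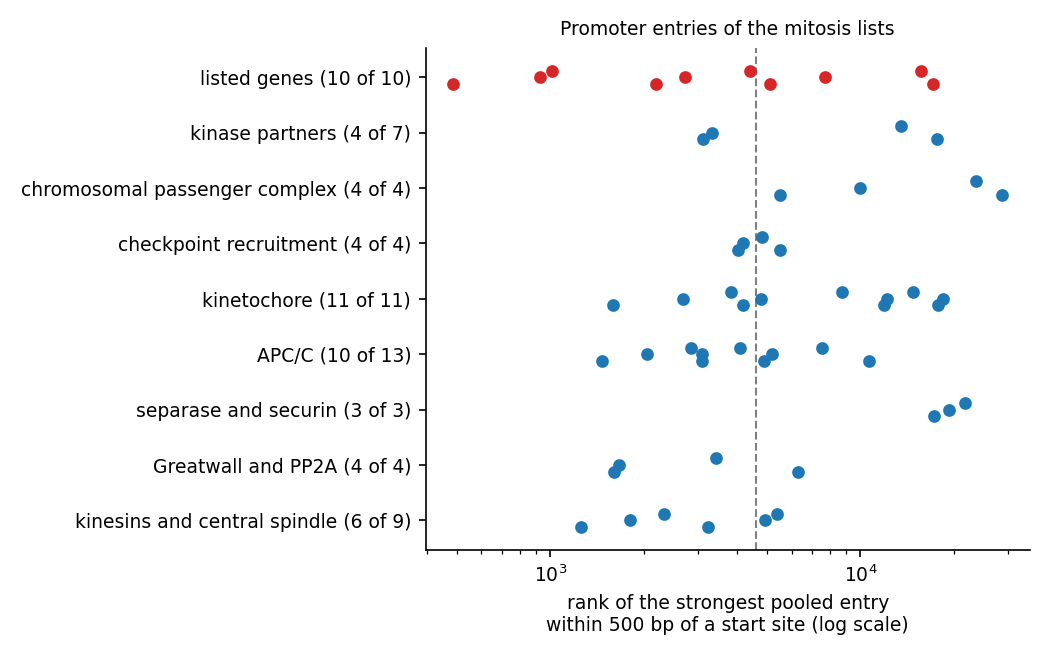
Rank of the strongest pooled entry within 500 bp of a start site (log scale), 1 dot per gene, for the 10 listed genes (top row) and the 8 mitosis lists. Row labels give how many of the genes have such an entry, and the dashed line is rank 4599. No gene of the chromosomal passenger complex or of separase and securin lies left of it.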

How the data were processed

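CHES-1-like-GFP was assayed by ChIP-seq in 2 biological replicates, numbered 2 and 3, of 1 group. Of the deposited lists, the 4 on dm6 were used: thresholded, pooled and 1 per replicate. Each line gives a signal value per peak and a −log10 q-value, both the authors' own. Per the deposited manifests, the replicate and pooled lists were made from the alignments and a control, and the thresholded list from them by the irreproducible discovery rate procedure. The aligner, the caller and the limits were not given in the sources used here, and the files hold no read counts, so depth is unknown.

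A summit is the peak start plus the offset, counted from 1. Genes and TSSs came from Ensembl release 115 and sequence from RefSeq release 6. No peak ended beyond an arm, and the coding sequences of all 10 genes began with ATG. Lists were matched within 100 bp. Ranks are by signal within a list. No hypothesis test or p-value was computed. Intervals are exact, at 95%. The members and lists were chosen with earlier results of these data known. Named genes are the 10, their neighbours at a shared summit or within 1 kb, and the 2 strongest of each list by any thresholded summit in range. Genes named otherwise were named after their values were seen. Sequences of BubR1, Mad1, polo, Bub1 and aurB are not printed here. The functions that assign summits to genes were tested on simulated summits. The other functions were not tested in this way. The tools were pandas 2.3.3, numpy 2.4.6, scipy 1.17.1 and matplotlib 3.10.9 under Python 3.11.15.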

Additional observations from a re-analysis of the deposited data

How the results depend on the processing

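The count of 6 genes was within 1.5 times in 20 of the 22 alternatives tried for the counts over genes. In the gene body alone it fell to 1 (polo) in the thresholded list and to 1 in both replicates, since promoter summits lie upstream, and the share of all genes fell to 13.5%. Windows of 0.5, 1 and 5 kb gave 6, 6 and 7 genes, beside 31.3%, 34.7% and 53.4% of all genes, peak overlap 6 beside 41.3%, and the nearest TSS alone 4 beside 22.9%, without Bub3 and Mps1. At the TSS, 250 bp gave 5 beside 22.1%, 1000 bp 6 beside 28.9%, and 1 TSS per gene 6 beside 24.0%. The 2299 strongest summits gave 4 genes in each count, beside 24.9% in the range of the gene and 15.0% at the TSS. Pooled entries with a q-value under 0.05 gave 9 beside 54.9% and 8 beside 38.6%. With either replicate left out, the range count was 7 both times (39.5% to 40.2% of all genes) and the TSS count 5 to 7 (25.2% to 26.2%). Without replicate 3 Mad1 was added in both counts. Without replicate 2 aurB was added in the range count, through the entry at Dnz1, and mad2 was lost at the TSS. Among the best of both replicates the count was 4 with 2299 entries each, 7 at 5 kb, 6 by q-value and 8 with a q-value under 0.05, where the entries of Bub1 lay 783 bp apart. Matching within 50 and 250 bp gave 7 and 9 shared summits in place of 8. By q-value, 5 of the 6 promoter summits were among 4140 entries tied at the top. No paired analysis was possible because there is 1 group. Without read counts, absence of a summit cannot be told from low depth.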
